A study of Mus musculus with 9 samples.

Results

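A set of 10 integrated stress response genes was followed across mouse embryonic stem cells (ESCs) that carried different doses of Myc. It comprised the transcription factors Atf4, Atf5 and Ddit3 (the gene of CHOP), the feedback pseudokinase gene Trib3, and the effector genes Chac1, Asns, Sesn2, Vldlr, Stc2 and Pck2. These 10 genes of the 35771 in the deposited table were picked by symbol, with values of the same 9 libraries already known. Their levels, changes and calls are therefore given as a description, and no p-value is given for a member or for the set. Each symbol matched 1 gene, and all 10 passed the filter on low counts that left 13424 genes for testing.

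The cells were homozygous iMOS T1-Myc ESCs with the tamoxifen-activated RERT recombinase, of mixed background, grown on gelatin in medium with LIF, a cytokine that maintains ESCs. In this line, recombination makes a mosaic of cells that differ in their number of extra Myc copies, each marked by the yellow fluorescent protein EYFP. Induced cultures received 20 µM 4-hydroxytamoxifen for 24 h, and 24 h after its removal the cells were sorted by EYFP. The study compared 3 libraries each of 2-copy cells, which gained 2 extra Myc and EYFP copies, of no-copy cells, which gained none in the mosaic cultures, and of sorted cells from uninduced homozygous cultures. Both names count added copies only, beside the endogenous Myc, and both populations are called induced, since the uninduced cells were sorted as well. All groups share the iMOS T1-Myc and RERT alleles and the sort. The sample labels repeat the tamoxifen treatment for the uninduced samples, whereas the study's design text calls them uninduced, and they are treated as uninduced here. The design text calls the replicates biological. Nothing used here says whether they came from separate cultures, so the errors and p-values measure the spread between these samples, which may be technical.

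The integrated stress response begins when a kinase (PERK, GCN2, PKR or HRI) phosphorylates the translation factor eIF2. General translation then slows, while the ATF4 protein is made more efficiently because of short upstream reading frames in its messenger RNA. ATF4 is thus controlled largely at translation, and its RNA level does not report its protein. ATF4 activates genes of amino acid synthesis, amino acid uptake and tRNA charging, and it induces CHOP, with which it shares further targets. The GCN2 branch responds when amino acids run short, and mouse ESCs are known to depend on amino acid metabolism, threonine use among it.

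Library totals ran from 4165286 to 8872303 estimated read counts. Levels are given in CPM, read counts scaled to a common library total, after TMM scaling, which corrects for differences in library composition. Myc itself was at 11.5, 14.1 and 14.2 CPM in the uninduced libraries, 31.8, 30.6 and 32.4 CPM in the no-copy ones, and 138, 147 and 141 CPM in the 2-copy ones. The groups did not overlap and followed the labels, and the no-copy cells lay above the uninduced ones. Gene counts do not separate the endogenous Myc from the added copies. ESC markers (10 of 10 tested) summed to 3617 to 3672 CPM in uninduced cells, 3766 to 3847 in no-copy cells and 3468 to 3667 in 2-copy cells. The no-copy libraries thus lay above all others. Replicate 1 of the 2-copy group stood apart: against its own replicates the chi-square per degree of freedom was 2.67 and 3.02, and 1.35 to 1.80 between all other replicates of a group. Centred log2 levels correlated with log2 transcript length at 0.0113 in that library and at -0.125 and -0.167 in 2-copy replicates 2 and 3. In the other groups the correlation was -0.00355 to 0.140, so standing apart does not mark replicate 1 as the faulty library. Where leaving out 2-copy replicate 1 changes a member's call or moves a member's value beyond the spread between replicates, the value without that library is given.

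The promoters of the 10 genes were searched for the composite C/EBP-ATF element, through which ATF4 and its partners are known to bind DNA. Windows from 250 bases before to 50 bases after each RefSeq transcription start (GRCm38.p6) matched all 10 genes with 12 windows. The core TGATGNAA, searched on both strands, was present in 5 of the 12 windows, in Asns, Chac1, Pck2, Trib3 and the second start of Vldlr. It was present in 3.97% of 32851 mouse promoter windows of the same length. The looser core TGNNGCAA, which overlaps the first at TGATGCAA, was in 5 of 12 windows (Atf5, Chac1, Sesn2, Trib3 and the second Vldlr start) and in 11.4% of all windows. The E-box CACGTG, the sequence that Myc with Max is known to bind, was in 0 of 12 windows and in 7.15% of all. The cores were chosen after the promoters had been seen, a match is no measured binding, and no match says only that these letters are not in the window. Each match to TGATGNAA is printed with its surroundings because 5 of the members share it, 5′ to 3′ on the strand of the gene, with the match in capitals. In Asns the core reads along the gene, and in the other 4 it lies on the opposite strand.
Chac1, chr2:119351038-119351067 (+): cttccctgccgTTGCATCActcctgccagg
Vldlr, chr19:27216809-27216838 (+): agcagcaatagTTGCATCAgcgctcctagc
Pck2, chr14:55540152-55540181 (+): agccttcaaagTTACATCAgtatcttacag
Trib3, chr2:152344028-152344057 (-): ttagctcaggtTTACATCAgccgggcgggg
Asns, chr6:7693214-7693243 (-): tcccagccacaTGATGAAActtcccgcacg
Counted from the RefSeq start base as 0, the match begins at -193 in Chac1, -200 in Vldlr, -103 in Pck2 and -23 in Asns. In Trib3 it begins at 14, after the RefSeq start. The gene positions given below come from GENCODE, whose starts differ from those of RefSeq for some genes. By the GENCODE positions the Asns and Vldlr matches lie inside the gene and the Trib3 match lies before it. Chac1 held 3 matches to the looser core within 1 window, and the stretch that holds them (GRCm38, chr2:119350992-119351141, plus strand) is printed with the matches in capitals because no other member had as many.
Chac1 promoter: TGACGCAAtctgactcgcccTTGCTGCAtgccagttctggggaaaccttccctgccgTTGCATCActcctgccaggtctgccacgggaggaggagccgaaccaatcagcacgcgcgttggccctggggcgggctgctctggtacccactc
Atf4, Ddit3 and Stc2 held none of the 3 sequences in their windows.

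Against the uninduced cells, all 10 genes were lower in both induced populations, with or without the added Myc. A gene is called changed here where edgeR's quasi-likelihood test gives a Benjamini-Hochberg adjusted p below 0.05 over all tested genes. In 2-copy cells, 10 of 10 members were called lower, where 12.1% of all tested genes were called lower and 12.8% higher. In no-copy cells, 10 of 10 were again called lower, where the shares of all genes were 6.39% lower and 7.10% higher. In both comparisons every uninduced library lay above every induced library for all 10 genes, a pattern found in 19.4% of all genes for 2-copy cells and in 15.4% for no-copy cells. Because the members were picked with these values known, the counts are no evidence that the set stands apart. Both comparisons use the same 3 uninduced libraries, so their likeness is not a separate observation. The tamoxifen treatment, the recombined mosaic culture and the Myc level separate the groups together and cannot be told apart in either comparison. In such bulk populations, fewer cells that express a gene and less of its RNA per cell cannot be told apart either.

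Summed over the 10 genes, the level was 1565 to 1620 CPM in uninduced cells, 1011 to 1073 CPM in no-copy cells and 1026 to 1141 CPM in 2-copy cells. The median log2 change of the members was -0.88 in 2-copy cells and -0.90 in no-copy cells, beside medians of -0.01 and 0.00 over all tested genes. Fold changes ranged from 1.15-fold lower for Sesn2 to 2.85-fold lower for Ddit3 in 2-copy cells, and from 1.21-fold lower for Sesn2 to 2.84-fold lower for Vldlr in no-copy cells.

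**Figure D1:**
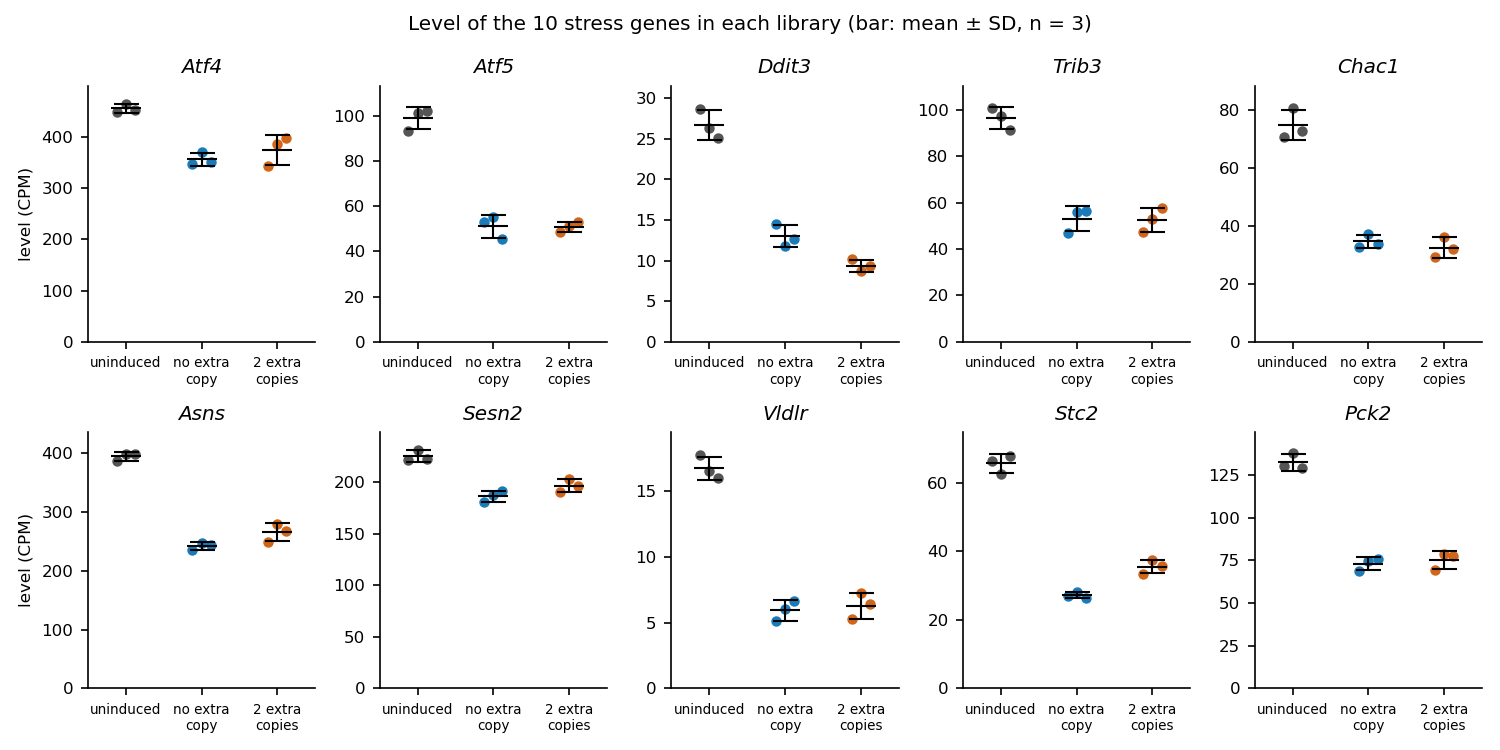
Level of each of the 10 genes in CPM (vertical axis, from 0) for the 3 libraries of each group (points), with the group mean and SD as bars. All 3 uninduced libraries lie above all 6 induced libraries in every panel, and the 2 induced groups are separate from each other for Ddit3, Asns and Stc2.

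Atf4 (ENSMUSG00000042406, GRCm38 chr15:80255184-80257541, plus strand), the central factor of the response, had the smallest change apart from Sesn2. It was at 449.6, 465 and 452 CPM in the uninduced libraries, 348, 370.0 and 351 CPM in no-copy cells and 342, 386 and 398 CPM in 2-copy cells. The uninduced libraries were the highest, and the induced groups overlapped each other. Its level was 1.28-fold lower in no-copy cells (log2 change -0.35, SE 0.0437) and 1.21-fold lower in 2-copy cells (-0.28, SE 0.0435). Without replicate 1 of the 2-copy group, the lowest of its 3 libraries, the latter change was -0.20.

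Atf5 (ENSMUSG00000038539, chr7:44812256-44816658, minus strand) encodes a related bZIP factor that is itself under translational control. Its levels were 93.5, 101 and 102 CPM in uninduced cells, 52.9, 55.2 and 45.5 CPM in no-copy cells and 48.4, 51.1 and 53.02 CPM in 2-copy cells. The uninduced libraries lay apart from the induced ones, which overlapped each other. The gene was 1.90-fold lower in no-copy cells and 1.94-fold lower in 2-copy cells, with log2 changes of -0.93 (SE 0.0642) and -0.96 (SE 0.0647).

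Ddit3 (ENSMUSG00000025408, chr10:127290774-127296288, plus strand) encodes CHOP, a C/EBP-family factor known for promoting cell death when stress persists. Its levels were 28.7, 26.3 and 25.1 CPM in uninduced cells, 14.4, 11.8 and 12.6 CPM in no-copy cells and 10.2, 8.67 and 9.27 CPM in 2-copy cells. No library of 1 group reached into another, and the levels fell in the order uninduced, no-copy, 2-copy. Compared with uninduced cells it was 2.08-fold lower in no-copy cells (log2 change -1.05, SE 0.111) and 2.85-fold lower in 2-copy cells (-1.51, SE 0.119). Fewer reads stood behind Ddit3 than behind most members, with 163 to 209 counts in uninduced libraries, 53 to 106 in no-copy cells and 48 to 64 in 2-copy cells.

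Trib3 (ENSMUSG00000032715, chr2:152337422-152344032, minus strand) is induced by ATF4 with CHOP and encodes a pseudokinase that holds back both. It stood at 101, 97.5 and 91.3 CPM in uninduced cells, 46.9, 55.8 and 56.4 CPM in no-copy cells and 47.3, 52.9 and 57.7 CPM in 2-copy cells. The induced groups covered almost the same range, well below the uninduced libraries. Their fold changes were close, 1.82-fold lower in no-copy cells (log2 change -0.86, SE 0.0696) and 1.83-fold lower in 2-copy cells (-0.87, SE 0.0699).

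Among the effectors, Chac1 (ENSMUSG00000027313, chr2:119351229-119354381, plus strand) degrades glutathione and lies behind the promoter stretch printed above. Its levels were 70.6, 80.5 and 72.7 CPM in uninduced cells, 32.8, 37.1 and 33.8 CPM in no-copy cells and 29.3, 36.1 and 32.0 CPM in 2-copy cells. No induced library exceeded 37.1 CPM, and no uninduced library was below 70.6. The change was -1.10 on the log2 scale (SE 0.0757, 2.14-fold lower) in no-copy cells and -1.20 (SE 0.0772, 2.30-fold lower) in 2-copy cells.

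Asns (ENSMUSG00000029752, chr6:7675169-7693254, minus strand) encodes asparagine synthetase, a classic target of the amino acid branch, with the printed core just before its RefSeq start. In uninduced cells it was at 386, 399.8 and 399.0 CPM, in no-copy cells at 235, 247 and 245 CPM and in 2-copy cells at 249.98, 279.5 and 268 CPM. The 3 groups were separate, with the no-copy cells lowest. It was 1.63-fold lower in no-copy cells (log2 change -0.70, SE 0.0409) and 1.49-fold lower in 2-copy cells (-0.57, SE 0.0406).

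Pck2 (ENSMUSG00000040618, chr14:55540266-55551242, plus strand), the mitochondrial phosphoenolpyruvate carboxykinase, was at 130.3, 138 and 129 CPM in uninduced cells, 69.0, 74.4 and 76.0 CPM in no-copy cells and 69.1, 78.8 and 77.5 CPM in 2-copy cells. The induced groups overlapped and lay far below the uninduced libraries. The folds were 1.82 lower in no-copy cells (log2 change -0.86, SE 0.0551) and 1.76 lower in 2-copy cells (-0.82, SE 0.0549).

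Sesn2 (ENSMUSG00000028893, chr4:132492032-132510501, minus strand) encodes a leucine sensor that restrains the growth kinase complex mTORC1 and is also a p53 target. It was at 222, 232 and 222 CPM in uninduced cells, 181, 188 and 191 CPM in no-copy cells and 190.4, 203 and 196 CPM in 2-copy cells. The uninduced libraries lay above both induced groups, and the spread within groups was the smallest of the 10 genes (SD 0.0416 on the log2 scale). The change was -0.27 (SE 0.0409, 1.21-fold lower) in no-copy cells and -0.20 (SE 0.0407, 1.15-fold lower) in 2-copy cells.

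Vldlr (ENSMUSG00000024924, chr19:27216484-27254231, plus strand), a lipoprotein receptor gene, was the least abundant member. Its levels were 17.7, 16.5 and 16.01 CPM in uninduced cells, 5.10, 6.03 and 6.67 CPM in no-copy cells and 5.26, 7.23 and 6.37 CPM in 2-copy cells. The induced groups overlapped, and only 28 to 54 counts stood behind each induced library, against 104 to 131 in uninduced libraries. Vldlr was 2.84-fold lower in no-copy cells (log2 change -1.51, SE 0.151) and 2.66-fold lower in 2-copy cells (-1.41, SE 0.150), the widest errors of the set.

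Stc2 (ENSMUSG00000020303, chr11:31357307-31370074, minus strand) encodes stanniocalcin 2, a secreted glycoprotein. It was at 66.4, 62.6 and 67.9 CPM in uninduced cells, 26.9, 28.1 and 26.4 CPM in no-copy cells and 33.5, 37.4 and 35.6 CPM in 2-copy cells. The groups were all separate, and the no-copy libraries were the lowest. It was 2.40-fold lower in no-copy cells (log2 change -1.26, SE 0.0737) and 1.85-fold lower in 2-copy cells (-0.88, SE 0.0705).

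**Figure D2:**
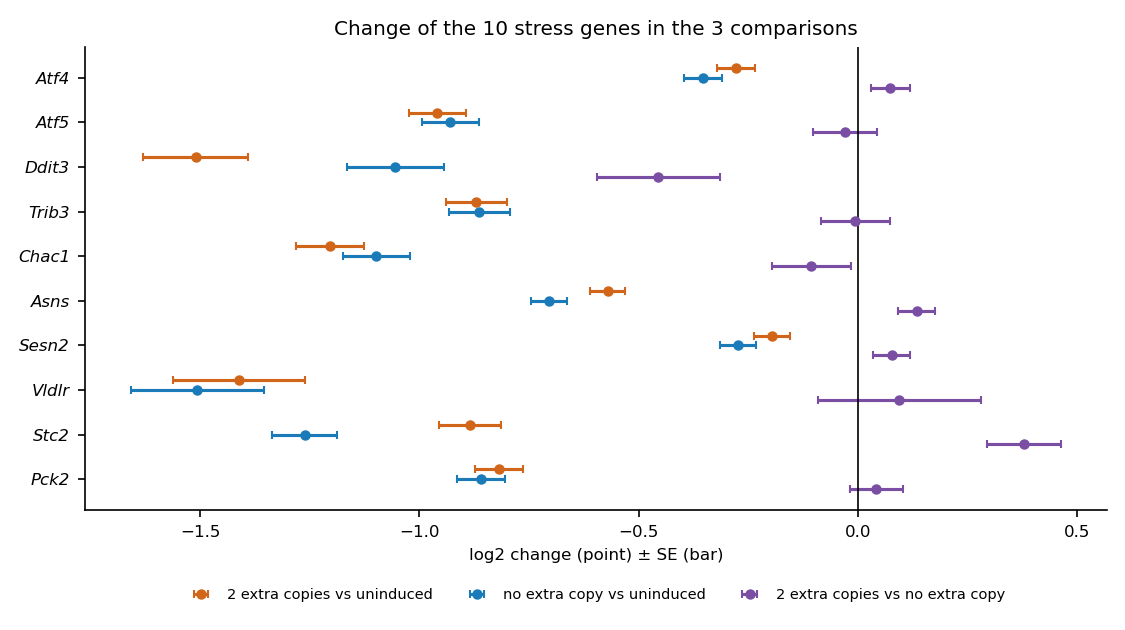
Log2 change (point) with its standard error (bar) of each gene on the horizontal axis, for 2-copy against uninduced cells (orange), no-copy against uninduced cells (blue) and 2-copy against no-copy cells (purple). The orange and blue points are negative for all 10 genes, whereas the purple points lie between -0.11 and 0.13 except for Ddit3 at -0.46 and Stc2 at 0.38.

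Both induced populations come from tamoxifen-treated mosaic cultures, so their comparison sets 2 extra Myc and EYFP copies against none under the same treatment. The Myc copies, the EYFP copies and the EYFP level sorted for differ together and cannot be told apart. The labels do not say which 2-copy and no-copy samples, if any, came from 1 culture. Here 3 of the 10 genes were called, Ddit3 lower and Asns and Stc2 higher in 2-copy cells, where 7.70% of all tested genes were called lower and 8.30% higher. The same 3 genes had groups that did not overlap, against 15.2% of all genes in the lower and 15.4% in the higher direction. The level of Ddit3 was 1.37-fold lower in 2-copy cells (log2 change -0.46, SE 0.140), that of Asns 1.10-fold higher (0.13, SE 0.0423) and that of Stc2 1.30-fold higher (0.38, SE 0.0839). The other 7 genes overlapped between the groups, with log2 changes from -0.11 (Chac1) to 0.09 (Vldlr). The median over the 10 was 0.06, beside -0.01 for all genes. Only the call of Stc2 held in all 19 alternative settings run. Those of Ddit3 and Asns were lost with DESeq2 and when replicate 2 or replicate 3 of the 2-copy group or replicate 1 of the no-copy group was left out, which leaves 1 call in each case. The call of Asns was also lost with library size alone and without replicate 3 of the no-copy group. Without replicate 1 of the 2-copy group, Atf4 joined the 3, with a log2 change of 0.15, and Asns stood at 0.19.

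Levels between genes are compared per kilobase of transcript, as CPM divided by the median length of the gene's coding transcripts. In uninduced cells Atf4 (264 ± 4.81 CPM per kb, mean ± SD, n = 3) and Asns (197 ± 3.76) were the highest, followed by Sesn2 (64.8 ± 1.63) and Atf5 (57.1 ± 2.78). Trib3 (47.7 ± 2.39) and Chac1 (45.6 ± 3.21) came next and did not differ beyond their spread. Pck2 (39.0 ± 1.43), Ddit3 (30.004 ± 2.05), Stc2 (16.7 ± 0.685) and Vldlr (4.34 ± 0.227) closed the order. The 4 highest and the 3 lowest members kept their places in both induced groups, where Atf5 and Trib3 overlapped and Pck2 stood beside Chac1 with overlapping values. In the 2-copy group Ddit3 (10.5 CPM per kb) came close to Stc2 (9.01), whereas in uninduced cells Ddit3 was well above it.

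**Figure D3:**
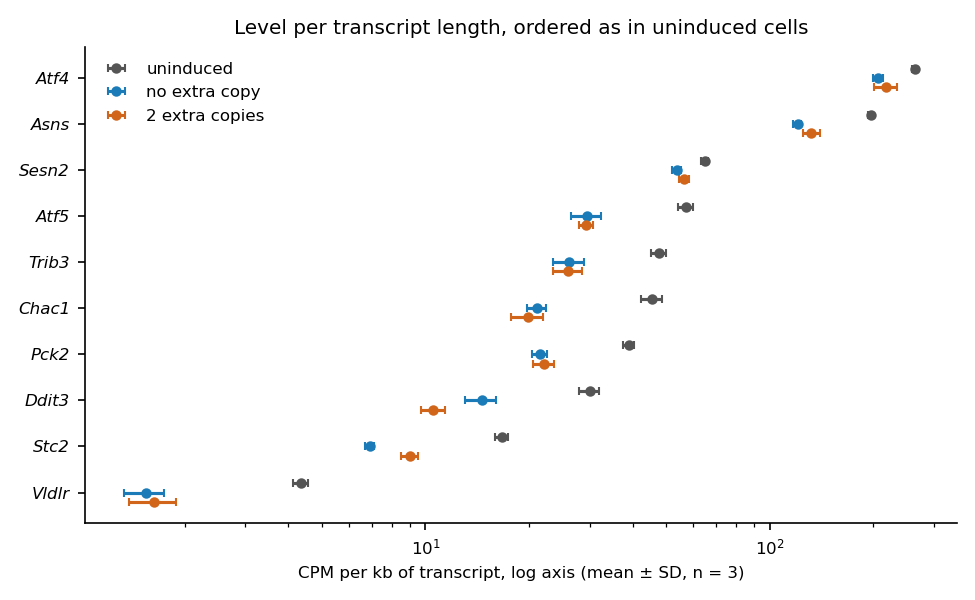
Level of the 10 genes in CPM per kilobase of transcript on a log axis, with points at the mean and bars for the SD of 3 libraries in each group, ordered as in uninduced cells. Atf4 and Asns are highest in every group and Vldlr lowest, and the gap between uninduced (grey) and induced groups is narrowest for Sesn2 and Atf4.

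The members also differed in how alike their profiles were over the 9 libraries, measured as the root mean square difference of log2 CPM after each gene's own mean was removed. Atf4 and Sesn2, the genes with the smallest changes, were the most alike pair (0.0621), followed by Trib3 with Pck2 (0.0677), Asns with Pck2 (0.107) and Atf5 with Pck2 (0.117). Averaged over the 10 genes, the centred log2 level was 0.56 to 0.61 in uninduced libraries, -0.27 to -0.35 in no-copy cells and -0.22 to -0.38 in 2-copy cells. Replicate 1 of the 2-copy group was the lowest library of all. These values describe the pattern by which the set was chosen.

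Outside the set, the 5 genes most like Ddit3 among 9468 tested genes whose mean was 10 CPM or more were Bhlhe40, a transcriptional repressor gene (difference 0.190), Egln3 (0.190), the cyclin gene Ccng2 (0.195), Bnip3 (0.216) and Ddit4 (0.218). Egln3, a prolyl hydroxylase of the hypoxia pathway, was at 24.8 to 32.5 CPM in uninduced cells, 10.4 to 11.7 in no-copy cells and 9.21 to 10.3 in 2-copy cells. Reads of Bnip3, a mitochondrial cell death and mitophagy factor, are uncertain because transcripts of other genes are near-identical to it. The 5 genes most like Asns were Upp1 (0.0803), Gpt2 (0.0893), Cryzl1 (0.0908), the phosphofructokinase gene Pfkp (0.0908) and Psat1 (0.0916). Upp1, a uridine phosphorylase, was at 219 to 245 CPM in uninduced cells, 148 to 161 in no-copy cells and 161 to 171 in 2-copy cells. The distances of these 5 genes to Asns were smaller than those of the other 5 to Ddit3. Ddit3 itself varied more, with an SD on the log2 scale of 0.672 over the 9 libraries and 0.120 within groups. For Asns these were 0.328 and 0.0545, so the distances do not show that Asns has closer companions.

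Other targets of ATF4 and CHOP, listed by pathway and none of them a member, were mostly lower in both induced populations as well. Of 48 tested genes, 31 were called lower and 1 higher in 2-copy cells, and 38 lower and 3 higher in no-copy cells. The log2 change was negative for 41 and 43 of them, with medians of -0.21 and -0.33. In counts of genes here and below, fell, lower, rose and higher mean called. Those counts are to be read beside the shares of all genes given above. The list was compiled with earlier results of these libraries known, so its direction is no independent evidence. Both medians lay nearer 0 than those of the 10 members, -0.88 and -0.90. Promoter windows were matched for only 37 of the 49 genes on this list. Of these 46 windows, 12 held TGATGNAA (26.1%) and 10 held CACGTG (21.7%).

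Amino acid and one-carbon synthesis, the branch to which Asns belongs, had 9 of 12 genes lower and 1 higher in 2-copy cells (median log2 change -0.25), and 10 of 12 lower in no-copy cells (median -0.45). Psat1, the serine pathway aminotransferase, was at 647, 648 and 649 CPM in uninduced cells, 415, 432 and 424 in no-copy cells and 490.3, 513 and 514 in 2-copy cells. It fell 1.53-fold in no-copy cells and 1.28-fold in 2-copy cells (adjusted p = 1.53e-14 and 1.52e-09, edgeR quasi-likelihood test). Gpt2, a mitochondrial alanine aminotransferase, fell 1.42-fold and 1.38-fold in the same order. Pycr1, which makes proline, fell 1.62-fold in 2-copy cells, and the folate enzyme Shmt2 fell 1.35-fold in no-copy cells. Cbs, which commits homocysteine to cysteine synthesis, ran the other way, from 18.1 ± 1.01 CPM (SD, n = 3) in uninduced cells to 31.4 ± 1.55 CPM in 2-copy cells, a 1.73-fold rise (adjusted p = 1.17e-07, edgeR quasi-likelihood test).

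Amino acid transport had 8 of 9 genes lower in 2-copy cells (median -0.33) and 9 of 9 in no-copy cells (median -0.41). The cationic transporter gene Slc7a3 fell 1.26-fold and 1.35-fold in that order, and Slc1a5, which carries glutamine, fell 1.31-fold and 1.34-fold. The glycine transporter gene Slc6a9 fell 1.63-fold and 1.76-fold, but Ccdc24 covers 27.8% of its exonic bases on the other strand and the counting strand is not given. Slc7a11, the cystine importer, was named after its values had been seen and fell by 1.08 and 1.07 on the log2 scale, at only 3.91 to 11.1 CPM. Genes of tRNA charging were called lower in 8 of 13 cases in 2-copy cells (median -0.16), where all 13 changes were negative. In no-copy cells 13 of 13 were called lower (median -0.27). Among them Nars, the asparaginyl-tRNA synthetase, fell 1.26-fold and 1.35-fold and Gars, the glycyl-tRNA synthetase, 1.20-fold and 1.30-fold. Aars, the alanyl-tRNA synthetase, fell 1.29-fold in 2-copy cells.

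The stress effectors outside the set moved less evenly: 6 of 14 tested genes fell and 0 rose in 2-copy cells (median -0.21), and 6 fell and 3 rose in no-copy cells (median -0.12). Ddit4, an inhibitor of mTORC1, was at 255, 210.3 and 234 CPM in uninduced cells, 104, 109 and 97.4 in no-copy cells and 103, 103 and 100.1 in 2-copy cells, which is 2.23-fold and 2.28-fold lower. In the same order, the growth factor gene Vegfa fell 1.94-fold and 1.76-fold, and Nupr1, a stress-induced chromatin protein gene, 1.99-fold and 1.91-fold. Targets of the hypoxia factor HIF, described below, had medians of -0.60 and -0.88 in that order. Whether the falls of Ddit4 and Vegfa belong to the ATF4 and CHOP response was not tested. In no-copy cells, Sqstm1, an autophagy receptor gene, rose 1.15-fold and the heme oxygenase gene Hmox1 1.19-fold. Mrnip covers 17.3% of the exonic bases of Sqstm1 on the other strand.

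Between the induced populations, 15 of the 48 other targets were higher in 2-copy cells and 3 were lower, with a median of 0.10. That count of 18 ranged from 10 (DESeq2, 0 lower) to 23 over the 19 alternatives, with 11 and 0 lower without replicate 3 of the 2-copy group. Without replicate 1 of that group, which stood apart, 22 were higher and 1 lower. Synthesis genes accounted for 7 of the rises and tRNA charging for 6, and the 3 lower genes were stress effectors, none of which was called with DESeq2. Psat1 rose 1.19-fold (adjusted p = 3.62e-06), Cbs 1.46-fold (adjusted p = 8.40e-05), the cationic transporter gene Slc7a1 1.22-fold (adjusted p = 1.23e-05) and Lars, the leucyl-tRNA synthetase, 1.174-fold (adjusted p = 2.91e-05), all by edgeR's quasi-likelihood test. Phgdh, the first enzyme of serine synthesis, rose 1.26-fold, but many near-identical pseudogenes make its count uncertain. Asns and Stc2 share this direction and Ddit3 does not.

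**Figure D4:**
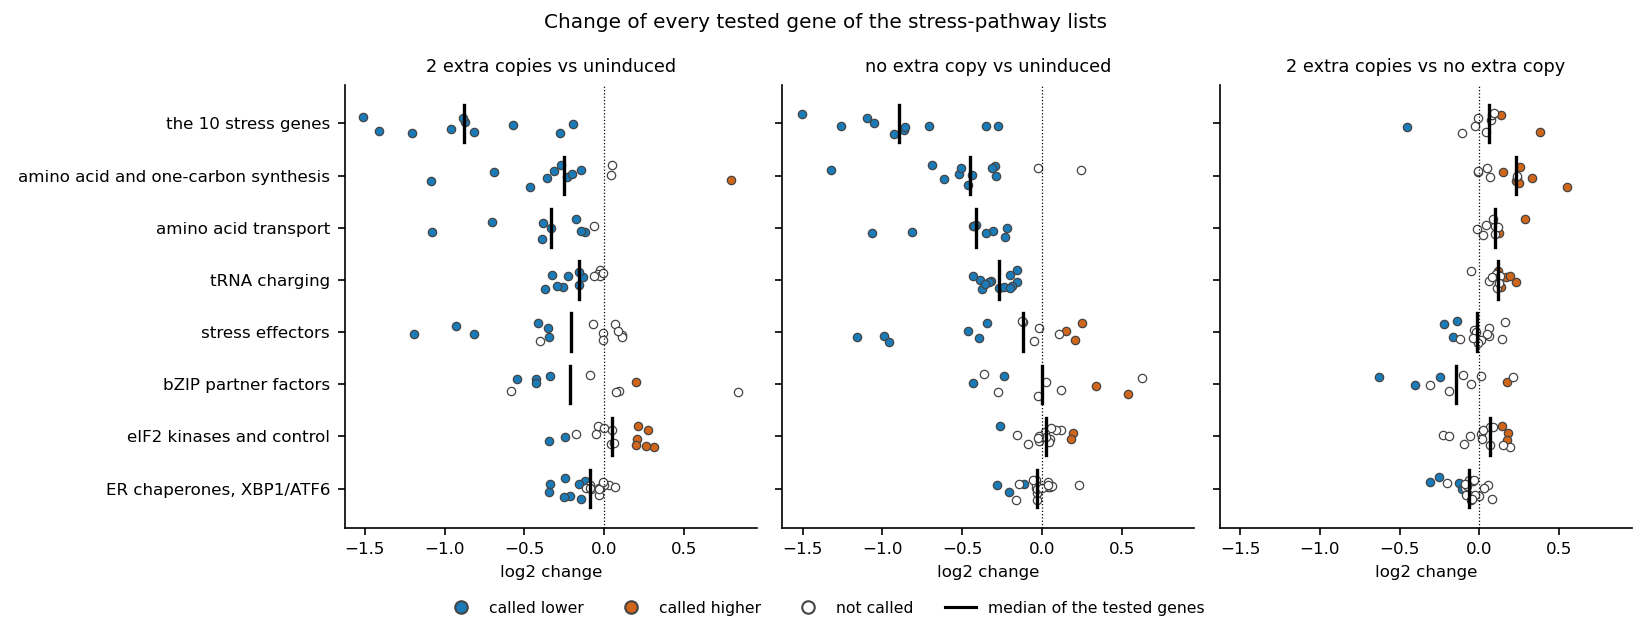
Log2 change of every tested gene (points) in the 10-gene set and 7 related lists, in 3 panels for the 3 comparisons, with a bar at each median; blue and orange fills mark genes called lower and higher, and open points genes not called. The upper lists lie mostly left of 0 in both panels against uninduced cells, and the synthesis list lies mostly right of 0 in the panel of 2-copy against no-copy cells.

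Genes of the upstream part of the pathway were called in both directions against uninduced cells. Of 15 tested genes for eIF2, its kinases and its control, 2 fell and 6 rose in 2-copy cells (median 0.05). In no-copy cells 1 fell and 2 rose (median 0.02), and between the induced groups 3 rose (median 0.06). Over all tested genes, 12.1% were called lower and 12.8% higher in 2-copy cells, and 6.39% and 7.10% in no-copy cells. Between the induced groups these shares were 7.70% and 8.30%. The counts in no-copy cells thus lay near the shares of all genes. Of the 4 kinase genes, Eif2ak1 (HRI) was called higher, from 58.6 ± 1.54 CPM in uninduced cells to 67.3 ± 1.56 in no-copy cells and 67.9 ± 4.47 in 2-copy cells (SD, n = 3), or 1.15-fold and 1.16-fold (adjusted p = 0.0310 and 0.0127, edgeR quasi-likelihood test). Its call in no-copy cells held in 13 of 19 alternatives and was lost with DESeq2 and without uninduced replicate 1, uninduced replicate 2 or any 1 of the no-copy replicates. The call in 2-copy cells was lost with DESeq2 and without uninduced replicate 2. Eif2ak2 (PKR), Eif2ak3 (PERK) and Eif2ak4 (GCN2) were not called in any comparison. Eif2ak2 was at 25.0 ± 2.78 CPM in uninduced cells, 26.3 ± 1.51 in no-copy cells and 22.3 ± 0.625 in 2-copy cells. Eif2ak3 was at 34.1 ± 1.67 CPM in uninduced cells, 35.3 ± 1.83 in no-copy cells and 32.9 ± 1.14 in 2-copy cells (SD, n = 3), and Eif2ak4 at 38.0 ± 1.54, 38.5 ± 2.17 and 36.8 ± 2.45 CPM. Ppp1r15a, the stress-induced phosphatase subunit also called GADD34, fell 1.27-fold in 2-copy cells (adjusted p = 0.000498, edgeR quasi-likelihood test). Its constitutive relative Ppp1r15b fell 1.19-fold in 2-copy cells and 1.20-fold in no-copy cells. Impact, an inhibitor of GCN2, rose 1.21-fold and 1.14-fold in the same order. RNA levels do not show the phosphorylation of eIF2, which these libraries do not measure.

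Of 10 tested bZIP partners of ATF4 and CHOP, 4 were called lower and 1 higher in 2-copy cells (median -0.22). In no-copy cells 2 were called lower and 2 higher (median 0.00). Between the induced groups, 3 fell and 1 rose (median -0.15). Jun and Jund were the 2 genes higher in no-copy cells, by 1.45-fold and 1.26-fold. In 2-copy cells they were 1.55-fold and 1.19-fold lower than in no-copy cells. DESeq2 called neither the rise of Jun nor the fall of Jund, which was also lost without no-copy replicate 2. Gm11175 covers 52.6% of the exonic bases of Jund on the other strand. Atf2 rose 1.15-fold in 2-copy cells against uninduced cells, a call that held in 16 of 19 alternatives. Cebpg, the usual partner of ATF4 at composite elements, fell 1.34-fold in 2-copy cells and 1.35-fold in no-copy cells, from 54.5 ± 1.98 CPM to 40.6 ± 1.86 and 40.6 ± 1.69 (SD, n = 3). Nfe2l1, a factor that controls proteasome genes, fell 1.26-fold and 1.18-fold. Cebpb fell 1.46-fold in 2-copy cells (adjusted p = 0.0158, edgeR quasi-likelihood test). That call was lost in 3 of 19 alternatives: DESeq2, and leaving out uninduced replicate 1 or 2. Tmem189 covers 20.7% of the exonic bases of Cebpb on the other strand, and the counting strand is not given. Atf3, another early target, was not called, at 4.92 to 8.16 CPM in uninduced cells, 4.35 to 5.95 in no-copy cells and 2.90 to 5.60 in 2-copy cells.

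The ER chaperones with the XBP1 and ATF6 arm, the neighbouring branches of the unfolded protein response, had medians near 0. Of 20 tested genes, 8 were called lower in 2-copy cells (median -0.09) and 3 in no-copy cells (median -0.03). Their changes were negative in 17 and 13 cases. Between the induced groups 4 were called lower (median -0.06). Pdia4, a disulfide isomerase gene, fell 1.27-fold and 1.21-fold and Hsp90b1, the ER form of HSP90, 1.19-fold and 1.15-fold. Xbp1 was 1.19-fold lower in 2-copy than in no-copy cells (adjusted p = 0.00214, edgeR quasi-likelihood test). The median of the 10 genes thus lay further from 0 than that of this list in both comparisons with uninduced cells, as the choice of the 10 genes fixes.

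Genes of other processes also differed across the same groups, not all in the direction of the members. HIF targets fell in 7 of 11 cases in 2-copy cells (median -0.88) and in 8 of 11 in no-copy cells (median -0.60), and p53 targets rose in 10 of 13 and 8 of 13 cases (medians 0.26 and 0.15), with 1 lower in no-copy cells. Between the induced groups, HIF targets had 1 lower and 1 higher, and p53 targets had 5 higher. Fibroblast markers summed to 80.8 to 86.0 CPM in uninduced cells, 199 to 224 in no-copy cells and 125 to 133 in 2-copy cells, with 5 of 7 tested genes called higher in both comparisons with uninduced cells and 4 lower in 2-copy than in no-copy cells. Of the 10 fibroblast markers, Lum, Dcn and Postn did not pass the filter, and Lum was at 0 in all libraries but 1. Primitive endoderm markers summed to 353 to 358, 422 to 460 and 307 to 323 CPM in the same order, with 3 of 7 called lower in 2-copy cells and 3 of 7 higher in no-copy cells than in uninduced cells, and 6 lower in the comparison between induced groups. ESC markers had 2 lower and 1 higher in 2-copy cells, 3 lower and 5 higher in no-copy cells, and 5 lower and 1 higher between the induced groups. The part of other cell types, of hypoxia or of p53 in the levels of the 10 genes and of the other targets was not tested.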

How the data were processed

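RNA from 9 sorted ESC samples was sequenced as single-end reads of 75 bases, per the labels' protocols. The authors deposited expected counts per gene, estimated with RSEM 1.17 on GRCm38 with annotation release 84, per the submitters' processing notes and the file headers. Cutadapt, Picard and limma are listed there without a role. The aligner and the counting strand are not given in the sources used here. Of 35771 genes, 35432 matched a GENCODE M21 name, from which gene positions on GRCm38 were taken.

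Expected counts were rounded. Genes were filtered with filterByExpr, which left 13424 genes with 99.8% of counts, scaled by TMM and fitted over all 9 libraries with edgeR 4.0.16 (quasi-likelihood, robust) in R 4.3.3, with Benjamini-Hochberg adjustment over all tested genes and a threshold of 0.05. The common biological coefficient of variation was 0.0394. Log2 CPM used a prior count of 1. The procedure was tested on simulated counts that had the same spread for every gene. That test does not bear on calls of genes whose spread differs. Transcripts of each gene were compared with those of other genes by minimap2 2.31-r1302, and none of the 10 members had a near-identical copy. Alternatives used DESeq2 1.42.0, limma-voom (limma 3.58.1), other scalings and filters, and a replicate block. Others fitted only the 2 groups compared, removed the transcript-length trend, or left out each library in turn.

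The members and lists were chosen with earlier results of these data known. Besides the 10 members, the genes named are up to 3 per direction and comparison with the smallest p among those called in each list, and the 5 genes most like Ddit3 and Asns. Not every gene the rule allows is printed. Eif2ak1 in 2-copy cells, Eif2ak2, Eif2ak3, Eif2ak4, Atf3, Slc7a11, Lum, Dcn and Postn were named after their values were seen. The bZIP factor gene Cebpd had no match in the table.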

Additional observations from a re-analysis of the deposited data

How the results depend on the processing

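Each of the 10 members stayed lower and called in both comparisons with uninduced cells in all 19 alternatives, 10 of them other settings and 9 leaving out a library. In the comparison of 2 extra copies with no extra copy, the 3 calls were 1 with DESeq2 and 1 to 4 when a library was left out. The calls among the 48 other targets there, 18 in all, were 10 with DESeq2 and 11 to 23 when a library was left out. Over all tested genes, the calls for 2 extra copies against uninduced were 3350 with edgeR and 1889 with DESeq2. For no extra copy against uninduced they were 1811 with edgeR, 806 with DESeq2 and 1177 to 2201 with a library left out, the lowest without no-extra-copy replicate 2. For 2 extra copies against no extra copy they were 2148 with edgeR, 1061 with DESeq2 and 1397 to 2564 with a library left out, again lowest without no-extra-copy replicate 2. DESeq2 also called 2 rather than 4 lower bZIP partners with 2 extra copies, and 0 rather than 3 lower stress effectors between the induced groups. Over all alternatives, the higher p53 targets in no-copy cells numbered 4 to 8, the lower primitive endoderm markers in 2-copy cells 1 to 3, and the tRNA charging genes higher in 2-copy than in no-copy cells 3 to 10. Between the 2-copy and no-copy cells, the higher eIF2 genes numbered 1 to 4, the lower bZIP partners 1 to 4 and the lower ER genes 2 to 6. Without 2-copy replicate 1 the counts in this comparison rose, to 4 members, 23 other targets and 2564 of all genes. The cause was not tested.

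With the replicate number as a replicate block, 10, 10 and 3 members were called in the comparisons of 2 extra copies with uninduced, no extra copy with uninduced and 2 extra copies with no extra copy, and 32, 42 and 21 of the other targets. The block changed no call of a member. Deviations of same-numbered libraries correlated at only -0.0913 to 0.0865, so the numbers were taken as names and not as pairs. Depth limits Vldlr and Ddit3 most, since no induced library has more than 106 counts of either.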
